A study of Arabidopsis thaliana x Arabidopsis arenosa with 4 samples.

Results

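The comparison described here sets siliques of an interspecific F1 cross beside siliques of a stable allotetraploid. The F1, called the Ler cross, came from Arabidopsis thaliana ecotype Ler (4x) and Arabidopsis arenosa (4x, stock CS3901). The allotetraploid was Allo733 (stock CS3895, generation F8, ecotype label Ler). Both derive from both species, but which tissues of the Ler cross siliques hold both genomes is not given. Plants of both groups were grown at 22 °C under 16 h light and 8 h dark, and whole siliques were taken 4 days after pollination. Each group was 1 library of poly(A) RNA, so no difference given below has a replicate check and no p-value is printed. The deposited table lists 947 transcripts that its authors had selected, with an RPKM value (mapped reads scaled to transcript length and to the library's mapped total) in each library. Keeping the transcript with the highest mean at each locus left 809 genes, against 15935 genes with a value in the allele table of the same cross. The C24 and Col crosses, made with those ecotypes of A. thaliana (4x) and the same A. arenosa stock, are used only where their values stand beside those of the Ler cross.

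Crosses between species of Arabidopsis often fail after fertilization, when the endosperm, the tissue that feeds the embryo, develops wrongly and the seed aborts. An allotetraploid line such as Allo733 carries both parental genomes through many selfed generations and sets seed. A silique is a fruit: its green wall makes chlorophyll and fixes carbon, its veins and valve margins lay down secondary walls, and its ovules grow into seeds. In such whole fruits, fewer cells of a type and less RNA per cell cannot be told apart. Generation, the state of hybridity and the genome of the fruit wall also differ together between the libraries and cannot be told apart. The labels do not state which species was the seed parent of the cross. Over 15935 genes of the Ler cross the A. arenosa share of RPKM had a median of 3.87%, and which tissues it came from was not tested. As a share of summed RPKM it was 4.67%, so most of the signal of this library was assigned to A. thaliana. No difference given below is shown to be one of hybrid tissue.

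Markers of the parts of a silique were read in the allele table of the Ler cross. There 5 of 6 fruit wall and carpel markers had a value, at most 39.7 RPKM for FUL, and all 5 leaf or green tissue markers did, up to 14475 RPKM for CAB1. Of the seed coat markers TT4, the chalcone synthase gene, stood at 757 RPKM and TT8 at 15.1 RPKM, and the other 4 had no value. None of the 7 embryo and seed maturation markers and none of the 6 endosperm markers had a value, although siliques at this stage hold young seeds; a gene with no value there was not analysed here, and its absence shows no level. Beside Allo733 the table lists 5 of 5 green tissue markers, 5 of 6 vascular markers and none of the fruit wall, seed coat, embryo, endosperm or pollen markers.

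Over the 809 genes, 239 (29.5%) were at least 2-fold higher in the Ler cross, 227 (28.1%) were at least 2-fold lower and 343 lay within 2-fold, on the scale of log2(RPKM + 0.1). At a 4-fold rule 81 were higher and 69 lower. The median log2 ratio of the Ler cross to Allo733 was -0.39, with 349 genes above 0 and 460 below. After centring, in which that median was subtracted from every log2 ratio, 324 genes were higher and 149 lower. This moved the share of higher genes among those past 2-fold from 51.3% to 68.5%. The abundant end of the list was made of photosynthesis genes in both libraries. The 5 highest genes of the Ler cross were CAB1, CAB3, RBCS1A, LHB1B2 and RBCS2B, and those of Allo733 were RBCS1A, RBCS2B, the lipid transfer protein gene LTP4, CAB1 and LHB1B2.

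**Figure D1:**
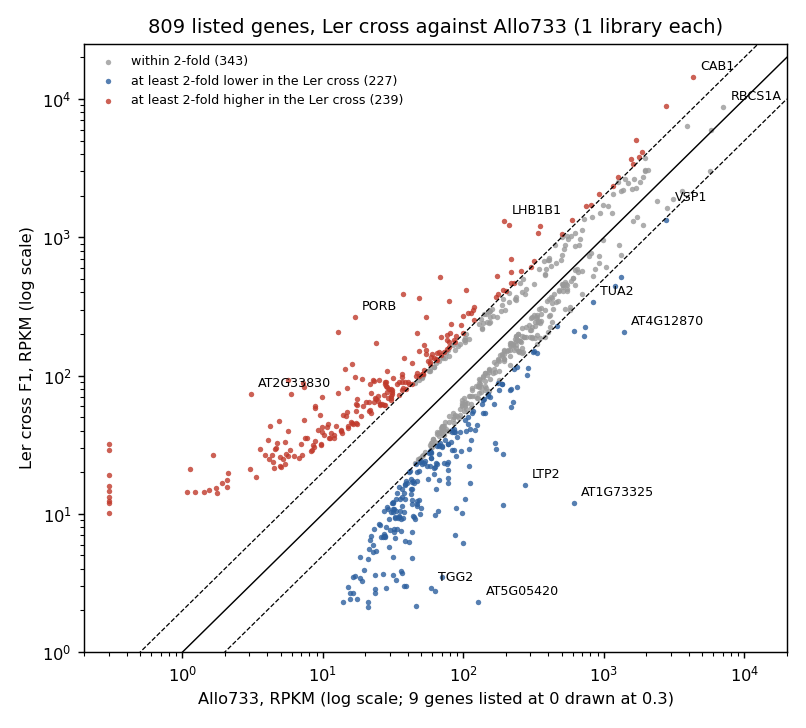
RPKM of the 809 listed genes in the Ler cross (y axis) against Allo733 (x axis), both on log scales, 1 point per gene and 1 library per axis. The solid line marks equal values and the dashed lines 2-fold; 239 genes lie above, 227 below and 343 between the dashed lines, and 9 genes listed at 0 in Allo733 are drawn at 0.3.

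The selection behind the table is visible in its values. The Allo733 column is the same in the tables of all 3 crosses, so 956 genes that the Ler table leaves out could be given both values. Among those, 90 (9.41%) were at least 2-fold higher and 47 (4.92%) at least 2-fold lower in the Ler cross, with a median log2 ratio of 0.03, and over listed and unlisted genes together the median was -0.05 (1765 genes). A smaller ratio was mostly enough for listing where the level was high, and up to 1000 RPKM the limit lay closer to equality on the lower side. Above 1000 RPKM this turned, with smallest listed log2 ratios of 0.055 above 0 and -0.28 below. Between 100 and 200 RPKM (mean of both libraries) the smallest listed log2 ratios were 0.65 above 0 and -0.33 below, and between 200 and 500 RPKM they were 0.47 and -0.13. The negative median of the listed genes therefore describes a list with uneven limits. Up to a mean of 20 RPKM all 97 listed genes were past 2-fold, and between 20 and 50 RPKM 92.1% were. At such levels a call past 2-fold mostly follows from being listed. The shares called over all listed genes, given beside the gene lists below, are then no fair measure for low members. The smallest ratios inside the table belonged to AGP9 (954 RPKM in the cross, 989 in Allo733) and RBCS2B (5960.05 and 5738). Among the unlisted genes with at least 20 RPKM in either library, the largest ratios were those of TBL41 (20.7 and 5.22) and AT5G24735 (22.6 and 6.41). At the 2-fold rule itself AT2G41475 (86.7 and 43.3) and GER3 (608 and 303) fell just inside and PSAO (2520 and 1267) and AT5G38980 (103 and 51.9) just outside on the higher side. On the lower side AT1G06640 (22.9 and 46.0) and AT3G54400 (74.1 and 149) were just inside, and AT1G52190 (190.1 and 378) and AT4G18670 (39.6 and 79.1) just outside.

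**Figure D2:**
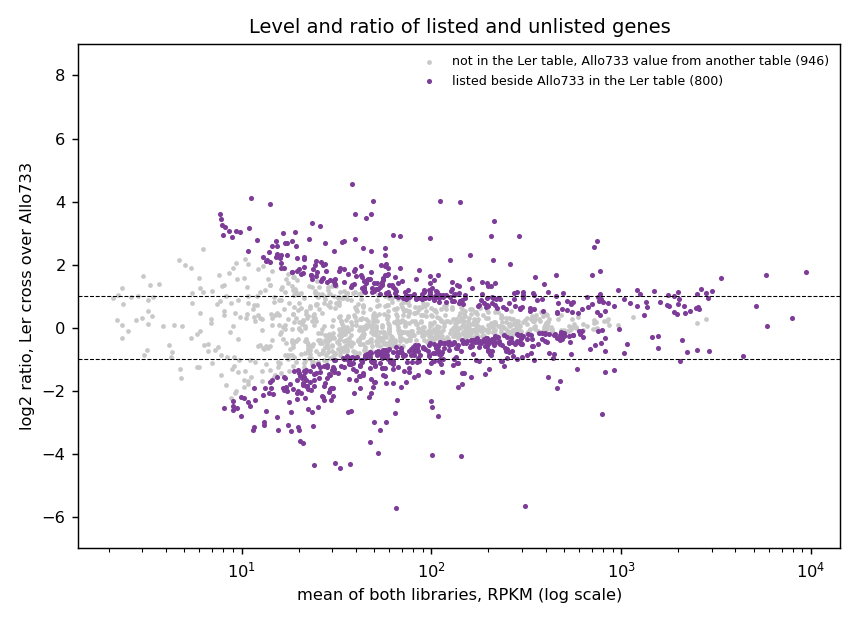
Log2 ratio of the Ler cross over Allo733 (y axis) against the mean RPKM of both libraries (x axis, log scale) for genes with a value above 0 in Allo733; purple points are listed in the Ler table, grey points are not and take their Allo733 value from the table of another cross. The purple points form 2 arms that approach 0 as the level grows, and up to 1000 RPKM the lower arm comes closer to 0.

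Genes of light harvesting and the photosystems were higher in the cross almost as a block. Of the 48 nuclear genes on that list 39 were listed and 38 of them lay above 0, where 349 of all 809 listed genes did. Past 2-fold were 14 higher and 1 lower, where 29.5% and 28.1% of all listed genes were called. Their median log2 ratio was 0.82 (1.205 after centring, when 33 passed 2-fold), beside -0.39 for all listed genes. Summed over the 39, the Ler cross had 101974 RPKM and Allo733 49793. The 6 largest ratios belonged to antenna proteins of photosystem II. The 6 members of the list that the table leaves out but that have both values were all above 0 and within 2-fold, with a median log2 ratio of 0.34. LHB1B1, a member of the major light-harvesting complex, had 1302 RPKM in the cross and 195 in Allo733, a ratio of 6.69. Its neighbour in the genome, LHB1B2, had 6340 and 3929 RPKM, and how reads were divided between these genes was not tested. LHCB2.3 of the same complex had 1235 and 211 RPKM. CAB1 had 14475 and 4294, CAB3 had 8840 and 2784, and CAB2 had 5013 and 1683 RPKM. These 3 genes share 96.1% and 96.4% of their coding sequence with each other (CAB1 against CAB2 and CAB3, over 804 bases), and how reads were divided among them was not tested; all 3 lay above 0. Photosystem subunits and antenna genes were mixed further down the list, from PSBQ-2 at a log2 ratio of 1.19 and LHCB5 at 0.66 to PSBO1, which stabilizes the oxygen-evolving centre, at 0.52 (2720 and 1892 RPKM) and PSAF of photosystem I at 0.47 (2516 and 1816 RPKM). LHCB4.3, a light-regulated form of the minor photosystem II antenna, was the exception, with 86.5 RPKM in the cross and 187 in Allo733.

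Stretches of 300 bases around the start of 3 of these genes, 250 before and 50 after the annotated start, are shown because the list differed in 1 direction. They were read from the RefSeq TAIR10.1 genome on the gene's strand: CAB1 at chr1:10477635-10477934, LHCB2.3 at chr3:10255656-10255955 and LHB1B1 at chr2:14524357-14524656, all on the plus strand. Capitals mark the I-box GATAAG, the G-box CACGTG, and the sugar-related motifs TTATCC and TATCCA, on both strands; GATAAG on the other strand reads CTTATC and can overlap TTATCC, which can overlap TATCCA.
CAB1: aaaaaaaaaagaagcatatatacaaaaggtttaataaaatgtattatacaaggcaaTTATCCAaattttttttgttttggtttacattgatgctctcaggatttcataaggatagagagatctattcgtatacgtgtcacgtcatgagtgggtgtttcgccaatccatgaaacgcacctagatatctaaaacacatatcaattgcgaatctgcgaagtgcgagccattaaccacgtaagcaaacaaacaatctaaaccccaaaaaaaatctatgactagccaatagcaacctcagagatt
LHCB2.3: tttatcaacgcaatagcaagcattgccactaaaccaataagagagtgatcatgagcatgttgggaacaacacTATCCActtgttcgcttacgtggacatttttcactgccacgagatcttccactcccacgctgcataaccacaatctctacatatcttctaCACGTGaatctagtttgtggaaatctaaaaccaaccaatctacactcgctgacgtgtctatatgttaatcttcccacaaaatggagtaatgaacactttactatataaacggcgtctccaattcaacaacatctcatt
LHB1B1: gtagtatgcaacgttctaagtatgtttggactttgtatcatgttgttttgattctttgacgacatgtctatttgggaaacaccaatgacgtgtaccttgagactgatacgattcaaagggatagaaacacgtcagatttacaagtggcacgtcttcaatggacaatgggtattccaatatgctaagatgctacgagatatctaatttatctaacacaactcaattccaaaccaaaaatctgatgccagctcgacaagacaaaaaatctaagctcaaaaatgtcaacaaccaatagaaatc
CAB1 holds 1 TTATCCA, LHCB2.3 a G-box and a TATCCA, and LHB1B1, with the largest ratio on the list, none of these letters. Over the 39 listed genes of the list, GATAAG was present in 46.2% of such stretches, CACGTG in 30.8% and TATCCA in 53.8%. Over all 27443 protein-coding genes the shares were 14.6%, 7.68% and 16.1%. Among the listed genes, GATAAG stood in 27.8% of those higher in the cross, 17.1% of those within 2-fold and 11.7% of those lower. For CACGTG these shares were 12.6%, 12.1% and 8.97%. The higher genes include 14 of this list. A match in these windows is a description and shows no binding.

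Some single genes of chlorophyll and carbon metabolism outside that list had large ratios; they were picked after their values were seen, with no list behind them, and do not describe a pathway. PORB, a light-dependent protochlorophyllide oxidoreductase, had 265 RPKM in the Ler cross and 16.8 in Allo733, and PORA, its close relative, 60.2 and 8.81. CH1, the oxygenase that makes chlorophyll b, had 35.2 and 7.69 RPKM. CA2, a carbonic anhydrase, had 81.0 and 14.9 RPKM. HEMB1 and LIN2, enzymes of tetrapyrrole synthesis that the table leaves out, were lower in the cross, with 8.72 and 23.599 RPKM for HEMB1 and 108 and 118 for LIN2. Genes of the early light-induced proteins, which bind chlorophyll under light stress, went the other way: ELIP1 had 29.5 RPKM in the cross and 171 in Allo733, and ELIP2 had 10.1 and 97.1.

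The Rubisco and Calvin cycle list followed the antenna genes with smaller ratios. All but 1 of its 10 listed genes were above 0, with a median log2 ratio of 0.50. Past 2-fold higher was 1 of them, where 29.5% of all listed genes were called higher. CP12-2, a small protein that binds enzymes of the cycle, had 284 RPKM in the cross and 107 in Allo733. The genes of the small subunit of Rubisco were on both sides of 0. RBCS3B had 3771 and 1951 RPKM, RBCS1A had 8736 and 7073, and RBCS1B had 2158 in the cross and 3608 in Allo733. Such genes are close copies, and how reads were divided among them is not given in the sources used here.

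**Figure D3:**
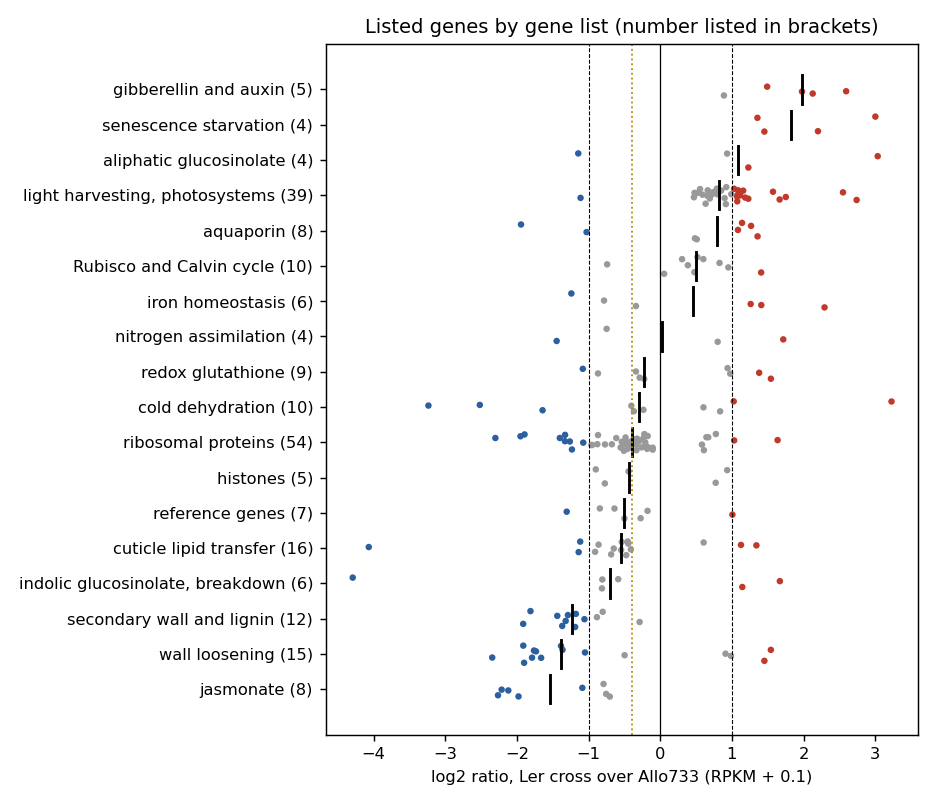
Log2 ratio of the Ler cross over Allo733 for the listed members of each gene list with at least 3 of them (1 point per gene; red, at least 2-fold higher; blue, at least 2-fold lower; grey, within 2-fold). Black bars are medians, dashed lines mark 2-fold and the dotted line marks the median of all listed genes, -0.39; the light-harvesting points lie to the right of 0 but for 1, and the secondary wall and jasmonate points lie to the left.

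Few genes of the senescence and starvation list, whose members are known from aging or carbon-starved leaves, were listed. The 4 listed, of 29 matched, were all past 2-fold higher, where 29.5% of all listed genes were called higher. TPS8, DIN10 and EXL2 had means below 50 RPKM, where every listed gene above 0 was past 2-fold, so their calls follow from being listed. Of 2 others with both values, SAG20 had 219 RPKM in the cross and 143 in Allo733 and SAG13 had 2.40 and 3.97. TPS8, a trehalose-phosphate synthase-like protein, had 29.3 RPKM in the cross and 3.57 in Allo733. DIN10, a dark-inducible raffinose synthase family member, had 26.4 and 5.65 RPKM. XTH24 had 189 and 68.9, and EXL2 had 55.0 and 21.4 RPKM. Families found by their annotated product after the values were seen showed the same direction. All 3 listed genes annotated as dormancy or auxin associated, of 5 in the annotation, were past 2-fold: AT2G33830 had 73.6 RPKM in the cross and 3.05 in Allo733, the largest ratio among genes with a value above 0 in both, DYL1 had 21.1 and 3.01, and AT1G56220 had 74.4 and 21.8. All 3 listed genes with YGL and LRDR motifs, again of 5, were past 2-fold, led by AT3G15450 with 121 and 16.2 RPKM. AILP1 of that family rests on its first transcript (132 and 63.7 RPKM); its other listed transcript had 2.11 RPKM in the cross and 43.8 in Allo733.

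The starts of AT2G33830 (chr2:14310559-14310858, minus strand) and AT3G15450 (chr3:5212734-5213033, plus strand) are shown with the same motifs in capitals.
AT2G33830: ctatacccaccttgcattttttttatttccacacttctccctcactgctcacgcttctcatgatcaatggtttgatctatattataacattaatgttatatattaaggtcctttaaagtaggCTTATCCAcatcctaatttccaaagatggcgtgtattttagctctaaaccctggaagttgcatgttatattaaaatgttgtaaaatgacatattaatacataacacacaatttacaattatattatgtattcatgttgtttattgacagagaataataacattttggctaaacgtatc
AT3G15450: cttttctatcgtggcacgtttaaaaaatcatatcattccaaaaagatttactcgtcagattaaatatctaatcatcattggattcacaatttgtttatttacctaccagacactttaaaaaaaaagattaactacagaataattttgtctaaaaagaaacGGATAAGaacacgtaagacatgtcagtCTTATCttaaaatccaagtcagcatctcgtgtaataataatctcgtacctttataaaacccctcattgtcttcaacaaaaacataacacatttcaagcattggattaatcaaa
AT2G33830 holds 1 run in which GATAAG (other strand), TTATCC and TATCCA overlap, and AT3G15450 holds GATAAG at 2 places, 1 of them overlapping a TTATCC of the other strand. Of the 10 genes in the 3 groups just described, 6 had GATAAG and 5 had TTATCC in this window. The shares were 14.6% and 14.8% over all protein-coding genes, and 27.8% and 27.0% over all listed genes higher in the cross. The 10 were chosen after their values were seen.

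The listed genes of the gibberellin and auxin list were also higher. Of 53 matched genes 5 were listed, all above 0 and 4 past 2-fold, where 29.5% of all listed genes were called higher. GH3.3, GA2OX2 and SAUR24 had means below 50 RPKM, where every listed gene above 0 was past 2-fold, so their calls follow from being listed. Of 2 others with both values, 1 lay above 0 and 1 below, and neither passed 2-fold. GH3.3, which joins auxin to amino acids, had 33.1 RPKM in the cross and 5.40 in Allo733. GASA1, a gibberellin-regulated peptide gene, had 344 and 78.5, and GA2OX2, which inactivates gibberellin, 42.7 and 10.8 RPKM. SAUR24 had 38.5 and 13.6 RPKM, and GASA4, within 2-fold, 468 and 253. ARGOS, an auxin-regulated gene of organ size outside the list, was lower in the cross, with 9.24 RPKM and 45.4 in Allo733; it was named after its values were seen.

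The secondary wall genes that the table lists were lower in the cross. All 12, of 50 matched, lay below 0 and 9 were past 2-fold, where 28.1% of all listed genes were called lower. Their median log2 ratio was -1.24, and after centring 3 were past 2-fold and 1 was above 0. IRX9 had a mean below 20 RPKM, where every listed gene below 0 was past 2-fold. IRX1, IRX3, IRX6, CESA4 and ESK1 had means of 20 to 50 RPKM, where 102 of 117 listed genes below 0 were past it. These calls mostly follow from being listed. Of 18 others with both values, 12 lay below 0 and 3 were past 2-fold lower, with none past 2-fold higher and a median of -0.08. The 3 cellulose synthases of secondary walls were CESA4 with 23.9 RPKM in the cross and 49.9 in Allo733, IRX3 with 17.2 and 38.9, and IRX1 with 17.3 and 47.1. IRX9, which extends xylan, had 4.84 and 18.5 RPKM, and ESK1, which acetylates it, 11.9 and 30.8. IRX6, a COBRA-like protein, had 9.27 and 32.8 RPKM, and FLA11, a fasciclin-like arabinogalactan protein of fibres, 35.7 and 89.3. The methyltransferase of monolignol synthesis CCoAOMT1 differed least, with 199 and 243 RPKM. All 5 listed vascular markers are among these 12 genes, so they give no separate measure of vascular tissue; XCP1, a xylem protease that the table does not list, had 15.9 RPKM in the Ler cross, 25.2 with C24 and 21.7 with Col.

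The other crosses place these values, with the reservation that every comparison with Allo733 uses the same Allo733 library. IRX3 had 17.2 RPKM in the Ler cross, 17.7 in the Col cross, 38.9 in Allo733 and 120.05 in the C24 cross. The same order held for IRX1, at 17.3, 20.22, 47.1 and 128 RPKM. Medians over the 12 genes were 28.5 RPKM in the Ler cross, 31.8 in the Col cross, 62.7 in Allo733 and 128 in the C24 cross. Against Allo733 the C24 table calls 9 of 11 listed members higher and none lower (31.7% and 31.4% of all its 1322 genes were called higher and lower). The Col table calls 5 of 9 lower and none higher, where 29.1% and 31.9% of its 791 genes were called lower and higher.

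**Figure D4:**
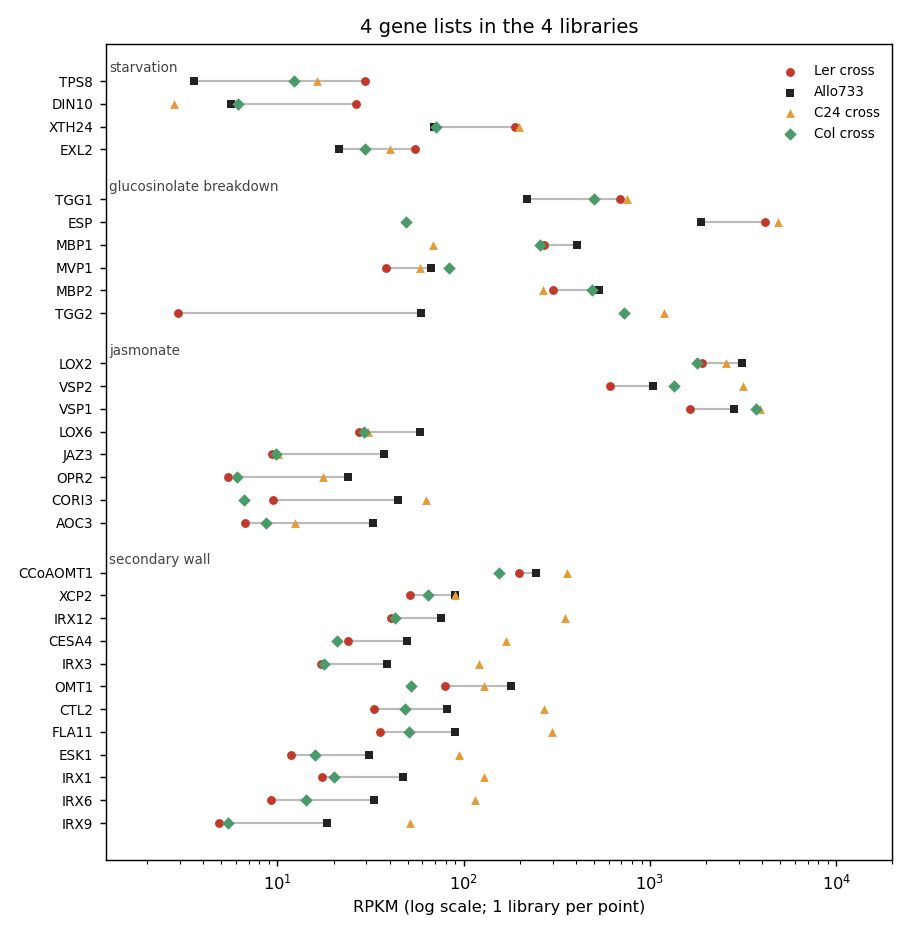
RPKM (log scale) of the listed genes of 4 lists in the 4 libraries, 1 library per point: Ler cross (red circles), Allo733 (black squares), C24 cross (orange triangles) and Col cross (green diamonds), with a grey line from the Ler cross to Allo733. Secondary wall genes are lowest in the Ler or Col cross for every member and highest in the C24 cross for 11 of 12, and TGG2 spans 2.91 to 1182 RPKM.

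Listed genes that loosen the primary wall were mostly lower. Of 38 matched genes 15 were listed, 10 were past 2-fold lower and 2 past 2-fold higher, with a median log2 ratio of -1.39, where 28.1% and 29.5% of all listed genes were called; after centring 7 were lower and 4 higher. The 5 others with both values lay above 0, 2 of them past 2-fold higher. XTH7, a xyloglucan endotransglucosylase, had 32.7 RPKM in the cross and 167 in Allo733. The alpha-expansins EXPA1 (12.3 and 46.6 RPKM), EXPA4 (29.2 and 109), EXPA5 (64.8 and 224), EXPA10 (28.4 and 96.6) and EXPA15 (23.0 and 76.9) were each past 2-fold lower. EXPA8 ran against them with 108 RPKM in the cross and 57.4 in Allo733, and EXGT-A3 and XTH24 were past 2-fold higher. Families named by product, picked after their values were seen, were lower or mixed. All 10 listed enzymes of nucleotide sugar synthesis, among them the UDP-glucose dehydrogenases UGD2 (63.3 and 106) and UGD3 (93.7 and 154), were below 0 with none past 2-fold. The 4 listed tubulins were below 0, 2 of them past 2-fold, TUA2 with 339 RPKM in the cross and 838 in Allo733 and TUB1 with 23.62 and 77.6. These 10 enzymes and 4 tubulins stayed below 0 after centring, because each ratio was below -0.39. Other wall families were mixed. Of 12 listed arabinogalactan proteins 4 lay above 0, with 2 past 2-fold higher and 5 lower. Of 11 listed pectin-related genes 3 lay above 0, with 1 past 2-fold higher and 3 lower.

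Cuticle and lipid transfer genes were split. Of 16 listed genes 13 lay below 0, 3 were past 2-fold lower and 2 past 2-fold higher, with a median log2 ratio of -0.54. Over all listed genes 28.1% were called lower and 29.5% higher. After centring the median was -0.15, with 1 gene past 2-fold lower and 2 higher. Of 11 others with both values, 7 lay above 0 and 4 below, none passed 2-fold, and their median was 0.11. LTP2 had 16.1 RPKM in the cross and 272 in Allo733, a ratio of 16.9 in favour of Allo733, whereas LTP4 had 3036 and 5703. CYP86A2, a cutin hydroxylase, was higher in the cross with 135 and 61.6 RPKM. Among 8 listed proteins annotated as bifunctional inhibitor or lipid transfer proteins, 4 were past 2-fold higher and 4 past 2-fold lower. AT5G01870 had 208 and 12.8 RPKM and AT5G48490 had 388 and 37.3, whereas AT5G55450 had 16.8 in the cross and 111 in Allo733.

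Jasmonate genes were lower in all 8 listed cases, of 32 matched, and 5 were past 2-fold, beside 28.1% of all listed genes, with a median log2 ratio of -1.53. AOC3 and OPR2 had means below 20 RPKM, where every listed gene below 0 was past 2-fold. JAZ3, CORI3 and LOX6 had means of 20 to 50 RPKM, where 102 of 117 listed genes below 0 were past it. These calls mostly follow from being listed. Of 5 others with both values, 4 lay above 0 and none passed 2-fold, led by JAZ6 (70.7 and 43.8). AOC3, an allene oxide cyclase of jasmonate synthesis, had 6.69 RPKM in the cross and 32.6 in Allo733. The oxophytodienoate reductase gene OPR2 had 5.40 and 23.8, and the repressor gene JAZ3 9.36 and 37.2. CORI3, a coronatine-induced transaminase, had 9.44 and 44.1 RPKM. The most abundant members had the smallest ratios: LOX2 had 1904 and 3102 RPKM, VSP1 had 1633 and 2826, and VSP2 had 612 and 1034. Over all listed genes the ratio closest to 0 on the lower side was -1.34 up to 20 RPKM and -0.28 above 1000 RPKM. A relation of level and ratio among the jasmonate genes cannot be told apart from these listing limits. In the other crosses VSP2 had 3157 RPKM with C24 and 1347 with Col, so Allo733 lay above the Ler cross and below both others. Genes of endoplasmic reticulum bodies and jasmonate-related lectins, named after their values were seen, were lower too, with BGLU18 at 1324 RPKM in the cross and 2760.3 in Allo733, TSA1 at 86.8 and 189, JAL23 at 446 and 1195 and JR1 at 149 and 314.

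Defence genes of the mustard-oil system differed from gene to gene. Of 6 listed members of the indolic glucosinolate and breakdown list, 2 were past 2-fold higher and 1 lower. Over all listed genes 29.5% were called higher and 28.1% lower. The 3 other members with both values lay above 0, 1 of them past 2-fold higher. TGG1 and TGG2 encode the myrosinases, which release mustard oils from glucosinolates. TGG1 had 692 RPKM in the cross and 217 in Allo733, while TGG2 had 2.91 and 58.9, and the C24 and Col crosses had 1182 and 722 RPKM of TGG2. ESP, the epithiospecifier protein that diverts the products to nitriles, had 4150.1 RPKM in the cross, 1876 in Allo733, 4874 with C24 and 48.8 with Col. The myrosinase-binding proteins MBP1 (269 and 405) and MBP2 (301 and 529) and the lipase-like MVP1 (38.2 and 67.0) were lower in the cross within 2-fold. In aliphatic glucosinolate synthesis 4 of 21 matched genes were listed. Of 3 others with both values, 1 lay above 0 and 2 below, and none passed 2-fold. CYP79F1, the entry enzyme for methionine-derived glucosinolates, had 34.0 RPKM in the cross and 4.06 in Allo733. BCAT4, which starts chain elongation, had 62.3 and 26.5 RPKM, CYP83A1 had 122 and 64.0, and IPMI2 was lower with 39.3 and 87.0. The single listed gene of the defence list, PR4, had 40.5 and 13.5 RPKM. Both listed Kunitz protease inhibitors were far lower in the cross, AT1G73325 with 11.9 RPKM against 611 and AT1G72290 with 3.295 against 33.1.

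Cold and dehydration genes lay on both sides of 0. Beside the counts of this paragraph, 29.5% of all listed genes were called higher and 28.1% lower. Of 10 listed genes 2 were past 2-fold higher and 3 past 2-fold lower, and the median log2 ratio of -0.30 turned to 0.09 after centring. Of 7 others with both values, 6 lay above 0 and 1 below, and none passed 2-fold. COR15B, a chloroplast protein of cold acclimation, had 46.6 RPKM in the cross and 4.88 in Allo733. The dehydrin genes LTI30 (2.12 and 20.9) and ERD10 (23.4 and 73.1) and the stress gene LTI78 (7.45 and 43.2) were lower. Redox genes were likewise split, with 2 of 9 higher and 1 lower, and their median of -0.22 turned to 0.16 after centring. Of 4 others with both values, 3 lay above 0 and 1 below, and none passed 2-fold. Over all 21 listed transcripts of the 9 listed redox genes, 3 were higher and 7 lower, with a median of -0.34. APX1, the 1 gene called lower, holds 8 of the 21, so the transcript counts weigh this locus most and do not describe 9 genes. Among the redox genes CAT3, a catalase gene, had 563 and 216 RPKM. CAT2 had 68.7 and 126 for its first transcript and 48.9 and 12.3 for its second. Of 8 listed aquaporins 4 were past 2-fold higher, led by PIP1A (89.6 and 34.9), and 2 lower, PIP2;8 (7.69 and 29.9) and GAMMA-TIP (228 and 466). Of 6 other aquaporins with both values, 3 lay above 0 and 3 below, and none passed 2-fold. On the iron list, which also holds copper genes, 3 of 6 listed genes were past 2-fold higher and 1 lower. The higher were OPT3, a transporter of the phloem (143 and 53.8), the copper chaperone gene CCS (60.9 and 25.3) and ORG1 (26.9 and 5.41). ORG1 is annotated only as OBP3-responsive protein 1. The ferritin genes FER4 (17.9 and 42.5) and, within 2-fold, FER1 (48.5 and 83.7) were lower. Of 3 other members of the iron list with both values, 2 lay above 0, 1 of them past 2-fold higher, and 1 lay below. Of 4 listed nitrogen assimilation genes 1 was past 2-fold higher and 1 lower, with SIAR1 higher (32.2 and 9.73) and GLN1.3, a cytosolic glutamine synthetase, lower (79.6 and 217).

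Genes annotated as ribosomal proteins, other than those named plastid or mitochondrial, formed the largest list. Of 371 genes 54 were listed, 47 lay below 0, 9 were past 2-fold lower and 2 higher. Over all listed genes 28.1% were called lower and 29.5% higher. Their median log2 ratio was -0.39, the same as that of all listed genes, and after centring 27 of the 54 were above 0, with 5 past 2-fold higher and 4 lower, so no direction of the list stands apart from that median. The 143 members left out of the table that have both values had a median of -0.06. The lowest listed were AT3G04230 (22.2 RPKM in the cross, 110 in Allo733) and AT3G10950 (6.91 and 27.0), and the highest listed was AT3G06680 (60.6 and 19.4). AT3G02560 was lower on its first transcript (70.8 and 149) and higher on its second (64.1 and 2.66). The pattern of the list also took in the elongation factor gene LOS1 (563 and 651). The start of 1 called member, AT1G74270 (114 and 287 RPKM), is shown because its promoter elements differ from those of the antenna genes (chr1:27929488-27929787, minus strand); capitals mark site II, TGGGCC on either strand.
AT1G74270: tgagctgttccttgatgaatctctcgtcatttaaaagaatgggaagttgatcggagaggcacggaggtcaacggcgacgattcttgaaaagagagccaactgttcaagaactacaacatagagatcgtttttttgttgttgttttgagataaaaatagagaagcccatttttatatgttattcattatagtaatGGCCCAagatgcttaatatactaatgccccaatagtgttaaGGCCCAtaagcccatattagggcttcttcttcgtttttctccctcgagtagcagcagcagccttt
It holds site II at 2 places. Over the 54 listed genes site II stood in 68.5% of such windows and the telo box AAACCCTA in 51.9%, beside 15.5% and 6.22% of all protein-coding genes. Further housekeeping sets, named by product after their values were seen, differed little. All 5 listed genes of methionine and S-adenosylmethionine cycling lay below 0 with none past 2-fold (SAHH2 at 526 and 842 RPKM), also after centring. All 5 listed glycolytic genes lay below 0 with none past 2-fold (GAPC1 at 652 and 922). After centring GAPC2, LOS2 and TPI turned above 0, since their log2 ratios were -0.18, -0.22 and -0.36. Among 7 listed reference genes 1 was past 2-fold higher, UBQ3 (102 and 50.7), and 1 lower, TUA2. ACT7, an actin gene, had 449.9 RPKM in the cross and 544 in Allo733, a log2 ratio of -0.27 that turned to 0.11 after centring. Of 5 listed histone genes none passed 2-fold; HTB9 (128 and 67.0), which overlaps EXLA1 (97.2 and 48.99) on the other strand, was the highest and AT5G10400 (49.5 and 92.5) the lowest.

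Small RNA pathways were represented by a few genes. Of 43 matched genes of DNA methylation and small RNA pathways 2 were listed, AGO1 and AGO2, whose proteins carry small RNAs to their targets. AGO1 had 38.02 RPKM in the cross and 64.6 in Allo733, AGO2 had 11.5 and 36.7, and AGO3, the neighbour of AGO2 in the genome, ran the other way with 19.8 and 2.11. Precursor transcripts of 2 microRNAs were listed. MIR414 had 3.89 RPKM in the cross and 35.7 in Allo733. MIR163 had 22.2 RPKM in the Ler cross, 4.96 in Allo733, 2.84 with C24 and 12.9 with Col, with 12.4% of its RPKM in the Ler cross assigned to A. arenosa. The RPKM is that of the precursor; mature microRNA was not measured. Its mature sequence, at chr1:24884359-24884382 on the plus strand of TAIR10.1, is shown with the seed (bases 2 to 8) in capitals, above its site in PXMT1, a methyltransferase gene of the family that the annotation names as its targets, with bases that pair in capitals (chr1:24874307-24874330, minus strand, 5 mismatches).
miR163: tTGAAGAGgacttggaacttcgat
PXMT1 site: catcgAGTTCCAAGTCCTCTTCAA
PXMT1 and its neighbours AT1G66690 and AT1G66720 have no value in the Ler cross. Of 31346 annotated transcripts scanned without gaps, those of 48 loci had a site with at most 6 mismatches and none of these is among the 809 genes. BSMT1, a listed methyltransferase of the same superfamily, had 2.44 RPKM in the cross and 15.5 in Allo733 and held no such site. Of 5 genes annotated as targets of the trans-acting small RNA siR480, 4 were listed and all 4 were past 2-fold lower: AT4G29760 (20.9 and 78.0), AT4G29770 (5.29 and 22.7), AT5G18040 (7.41 and 31.96) and AT5G18065 (5.72 and 29.7). This family was picked out after its values were seen.

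Several lists left few or no genes in the table. The clock list contributed GRP7 (416 and 190.2 RPKM) and CCR1 (185 and 110 RPKM), RNA-binding proteins whose transcripts cycle daily, and the flavonoid list F3H (145 and 261) and FLS1 (38.8 and 85.3). The heat list contributed Hsp81.4 (27.3 and 67.2) and HSC70-1 (460 and 514), and the phosphate list SPX1 (11.3 and 28.6). No gene was listed from cell cycle and replication, polycomb, imprinted genes, type I MADS and endosperm genes, seed maturation, pollen, ovule and carpel MADS genes, the FLC clade or early stress transcription factors. In the Ler cross 38 of 43 matched cell cycle genes had a value, but 7 of 20 imprinted genes, 3 of 22 type I MADS and endosperm genes and 3 of 26 seed maturation genes. Absence from the table says nothing of a difference, since a ratio within the listing limits also leaves a gene out. FT, the mobile flowering signal, was listed, with 124 RPKM in the cross and 42.7 in Allo733. The cysteine proteinase genes CEP1 (92.7 and 22.8) and CEP2 (86.5 and 21.8), of a group that acts in dying tissue, were also listed; these 3 were chosen after their values were seen.

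The extremes of the ratio need care at the level of transcripts. In 9 genes Allo733 was listed at 0, so no fold is given; their RPKM in the Ler cross ran from 10.2 to 32.1. For 4 of them, UGT88A1, DGD1, AT2G30550 and AT2G31110, the value belongs to 1 of several transcripts, and the others have a value in the Ler cross but none in this table. For the remaining 5, AT3G16660 (32.1 RPKM), AT1G80440 (15.9), AT2G20670 (14.7), AT1G58235 (13.3) and AT2G40008 (10.2), the Ler cross had 1 transcript. AT2G40008 overlaps AT2G40010 on the other strand, and the strand of the counting is not given in the sources used here. After AT2G33830, the next largest ratios with both values above 0 were those of RIN2 (21.2 and 1.13) and AT5G01870. At the lower end AT5G05420 had 2.295 RPKM in the cross and 128 in Allo733, AT4G14301 had 2.79 and 63.1, and AT1G27030 had 11.5 and 191. AT4G12900 (3.47 and 70.9) and AT4G12870 (206 and 1378) are both annotated as thiol reductases of the GILT family, 2 listed of 4; the first overlaps scpl20 (88.7 and 45.3) on the other strand, and whether reads of that gene enter its value was not tested. AT1G54020, a lipase-like gene, had 6.15 and 98.8 RPKM, AT5G09570 had 3.01 and 39.2, and UBQ13 had 2.99 and 37.6.

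AT1G06890 shows how 1 locus can enter on either side, with 2.14 and 46.3 RPKM for its second transcript and 36.4 and 3.75 for its first. Of 97 loci with several listed transcripts, 17 had transcripts on both sides of 0 and 10 had them past 2-fold in both directions. Among the 73 loci with 2 listed transcripts, the larger value was at least 4-fold the smaller at 5 loci in the Ler cross and at 12 in Allo733. Near-identical genes are a second limit. AT2G01010 and AT3G41768 are copies of the 18S ribosomal RNA gene with 99.9% identity over 1808 bases, and had 7.05 and 87.8 RPKM for the first and 1073 and 337 for the second, so neither direction can be taken as that of a gene.

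The alleles of the Ler cross are given beside the calls as a description, since both alleles sum to the Ler value on which the calls rest. The A. arenosa share of RPKM had a median of 3.14% over the 809 genes, beside 3.91% over the 15126 genes that the table leaves out. Genes higher in the cross had a median share of 2.44%, genes within 2-fold 3.16% and genes lower in the cross 3.78%. As a share of summed RPKM the values were 5.80%, 3.63% and 6.81%, so the order of the 3 groups depends on the measure; abundant genes weigh more in a sum, and CAB1 had a share of 9.05%. A share of 20% or more was found in 9 of 239 higher, 7 of 343 intermediate and 15 of 227 lower genes. Genes lower in the cross had less RNA behind the share, with a median of 16.1 RPKM against 74.8 RPKM for genes that were higher. The highest shares were 47.6% in AT1G60740 (2.86 RPKM in the cross, 23.49 in Allo733) and 44.2% in the noncoding RNA gene AT1G67105 (514 and 68.1). Genes with a larger share included AT5G47350 at 27.6% (1200.5 and 349 RPKM) and LHCB4.2 at 25.3% (502 and 265). No allele values of Allo733 were used here, so the part of either species in Allo733 was not tested.

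**Figure D5:**
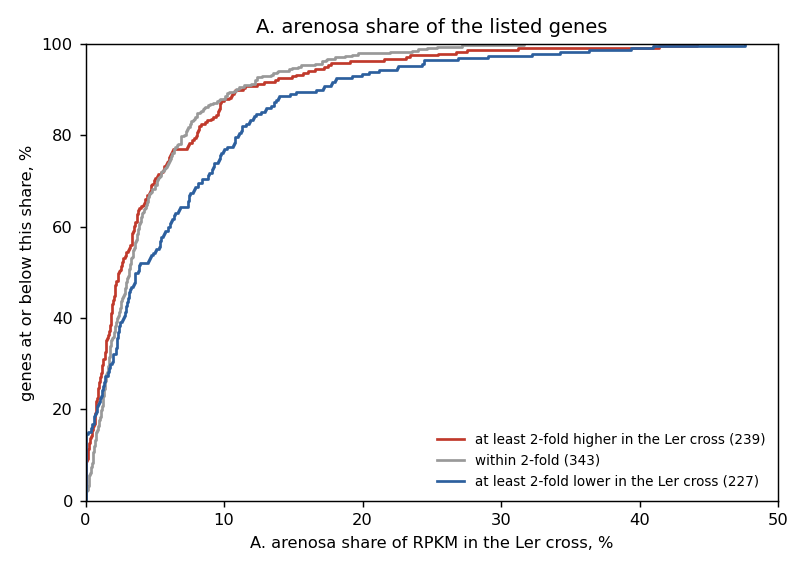
Cumulative share of genes (y axis, %) by the A. arenosa share of their RPKM in the Ler cross (x axis, %), for genes at least 2-fold higher (red, 239), within 2-fold (grey, 343) and at least 2-fold lower (blue, 227) than in Allo733. The medians are 2.44%, 3.16% and 3.78%, and the blue curve is the lowest of the 3 at its median.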

How the data were processed

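Poly(A) RNA of whole siliques was sequenced on an Illumina platform from 10 µg of total RNA, per the labels' protocols, with 1 library each for the Ler cross, the C24 cross, the Col cross and Allo733. The authors deposited RPKM values per transcript, per the file headers: the total and each allele for every cross, and selected transcripts of each cross beside Allo733. The genome build TAIR9 is named in the submitters' processing notes. Not given in the sources used here are the mapping tool, the annotation, the selection rule, the strand setting and the way reads were assigned to alleles. Since RPKM is scaled to each library's mapped reads, very abundant transcripts can lower the values of the rest. The depth behind the values is unknown.

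At each locus the listed transcript with the highest mean was kept. Ratios are log2 of RPKM plus 0.1, which understates changes of low genes, and calls use a 2-fold rule of size, without a test, because each group had 1 library. Names, products, coordinates and sequences come from RefSeq TAIR10.1, a later build than that of the files, which give no coordinates; 807 of 809 genes matched. Named genes were the 12 largest and 12 smallest ratios among genes reaching 5 RPKM, the 5 highest genes per library, up to 6 members per list and genes at the limits; other genes were chosen after their values were seen. The genes compared and the 33 lists were chosen with earlier results of these data known. Alternatives were a pseudocount of 1, a 5 RPKM filter, centring, all listed transcripts, the total of the allele table and a 4-fold rule; loci with 1 transcript and summed transcripts were added after seeing the data. Python 3.11.15, numpy 2.4.6, pandas 2.3.3 and matplotlib 3.10.9 were used.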

Additional observations from a re-analysis of the deposited data

Results flagged for a closer look

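Against the same Allo733 library, 22 genes lay at least 2-fold on 1 side in the Ler cross and at least 2-fold on the other side in the C24 cross, and 12 genes did so between the Ler and Col crosses. Each group was 1 library, so the difference between crosses was not tested, and all comparisons share Allo733. Of the 809 genes, 486 are also listed for the C24 cross and 414 for the Col cross.

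Most of the 17 genes that were lower in the Ler cross and higher in the C24 cross belong to secondary walls or to polysaccharides of the wall. The C24 cross had 168 RPKM of CESA4, 120.05 of IRX3 and 128 of IRX1, the cellulose synthases of secondary walls. It had 51.7 RPKM of IRX9, 115 of IRX6, 120.09 of IRX15-L, 94.2 of ESK1 and 79.1 of TBL33. The chitinase-like CTL2 stood at 271 RPKM, FLA11 at 297, the arabinogalactan protein gene AGP19 at 508, the sugar transporter gene AT2G28315 at 133 and the laccase gene LAC2 at 62.1. IQD13, a calmodulin-binding protein gene, had 74.2 RPKM in the C24 cross, beside 8.46 in the Ler cross and 25.1 in Allo733. The remaining genes were MLP328 at 196 RPKM, AT1G75280 at 691 and TGG2 at 1182.

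In the reverse direction, the C24 cross had 3.21 RPKM of AT2G34655, 20.7 of CAT3, 7.15 of BCAT4, 7.87 of AT5G37130 and 6.58 of SADHU6-1, where the Ler cross had 103, 563, 62.3, 99.1 and 176 RPKM. AT2G34655, BCAT4 and AT5G37130 were also lower than Allo733 in the Col cross, with 8.52, 2.25 and 14.5 RPKM.

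The Col cross further had 16.6 RPKM of AT3G56360, 22.5 of SVL2, 48.8 of ESP and 9.74 of AT1G27540, all of which were above Allo733 in the Ler cross. Genes lower in the Ler cross and higher in the Col cross were AT1G06640 at 95.9 RPKM, AGP18 at 236, the asparaginase gene ASPGB1 at 87.5, SDH3-2 at 107 and TGG2 at 722. In the Ler cross these had 22.9, 55.4, 11.7, 6.23 and 2.91 RPKM.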

How the results depend on the processing

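No paired analysis was possible because each group held 1 library, and for the same reason no replicate could be left out. The calls changed most with centring on the median of the listed genes, which gave 324 higher and 149 lower genes and a median of 0. Under centring HSC70-1 changed sign to 0.23, CSD1 to 0.048 and ACT7 to 0.11 on the log2 scale, and of 135 named genes 15 were no longer past 2-fold and 12 came to pass it; the shift is the constant subtracted. A 4-fold rule left 81 higher and 69 lower genes. The A. arenosa share was 5.80% for higher and 6.81% for lower genes as a share of summed RPKM, in place of medians of 2.44% and 3.78%. The choice of transcript turned AT1G06890 to 3.25 (first transcript), GS2 to -6.05 (its other listed transcript) and CAT2 to 1.98 (second transcript). The remaining alternatives kept both counts within 1.5 times: a pseudocount of 1 gave 236 and 223, all listed transcripts 290 and 265, and, added after seeing the data, loci with 1 transcript 184 and 186 and summed transcripts 235 and 220. The filter at 5 RPKM and the total of the allele table left 239 and 227. With no replicate and no known depth, the size of error on a ratio is unknown, and ratios of genes near 2 RPKM are the least certain.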
